A study of Mus musculus with 4 samples.

Results

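Krt7, Krt8, Krt18 and Krt19 encode keratins of simple epithelia. Open chromatin was described around their 4 start sites in mouse facial surface ectoderm. Every ATAC-seq peak whose centre lay within 50 kb of the start site of the principal transcript of one of these genes was taken, which gave 39 of the 65467 peaks of control ectoderm and 3 of the 3103 AP-2-dependent regions. ATAC-seq maps nucleosome-free DNA through the insertions of a transposase. At E11.5, surface ectoderm from the facial prominences gave 2 control libraries and 2 EDKO libraries, each made from 50000 cells. EDKO embryos carried the Crect transgene, in which an intronic enhancer of Tfap2a drives Cre in the ectoderm, and were homozygous for floxed Tfap2a and Tfap2b, the genes of AP-2α and AP-2β. Control littermates had no Crect and were heterozygous for both floxed alleles, so that all embryos carried them. Control peaks came from both control libraries called together. AP-2-dependent regions came from the same libraries called against both EDKO libraries, and mark chromatin that was more accessible in controls. Each list is a single pooled call, without values per library, without read counts and without an error between replicates. The differences below are therefore described and not tested, and the Wilson intervals cover counting error only.

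The members lie at chr15:101412402-101430313 on the plus strand (Krt7, ENSMUSG00000023039.17), chr15:101996698-102004482 on the minus strand (Krt8, ENSMUSG00000049382.10), chr15:102028180-102032027 on the plus strand (Krt18, ENSMUSG00000023043.7) and chr11:100140810-100146120 on the minus strand (Krt19, ENSMUSG00000020911.14). Keratins assemble into intermediate filaments as heteropolymers of a type I and a type II chain. Krt8 (type II) and Krt18 (type I) form the usual pair of simple epithelia and are among the first keratins made in the embryo. Krt7 (type II) and Krt19 (type I) are further chains of simple and ductal epithelia, and Krt19 is also made in periderm and in some basal cells. When surface ectoderm becomes stratified epidermis, the basal layer turns to Krt5 and Krt14, with Krt15 and Krt17 in basal cells and appendages. Type I genes lie together on mouse chromosome 11 and type II genes on chromosome 15, with Krt18 as the exception at the edge of the type II cluster.

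AP-2-dependent regions upstream of Krt8 and Krt19 are shown first, since the comparison of control with EDKO ectoderm rests partly on them. Each sequence gives 300 bases of the region around its summit, from the plus strand of GRCm38 (the mm10 build of the lists). Capitals mark matches on either strand to an AP-2 string, GCCNNNGGC, or an AP-1 string, TGANTCA. The first lies upstream of Krt8 (chr15:102005494-102005793) and the second, which holds no match, upstream of Krt19 (chr11:100176888-100177187). The second is named by its position only, as its nearest start site is that of Krt9.
Krt8 region: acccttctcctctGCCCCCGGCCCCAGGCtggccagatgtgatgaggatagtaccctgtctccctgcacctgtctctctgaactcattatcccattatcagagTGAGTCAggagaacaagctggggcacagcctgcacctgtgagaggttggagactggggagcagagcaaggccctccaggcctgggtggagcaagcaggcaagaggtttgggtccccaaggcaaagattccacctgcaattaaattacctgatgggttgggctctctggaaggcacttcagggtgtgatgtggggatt
Krt19 upstream region: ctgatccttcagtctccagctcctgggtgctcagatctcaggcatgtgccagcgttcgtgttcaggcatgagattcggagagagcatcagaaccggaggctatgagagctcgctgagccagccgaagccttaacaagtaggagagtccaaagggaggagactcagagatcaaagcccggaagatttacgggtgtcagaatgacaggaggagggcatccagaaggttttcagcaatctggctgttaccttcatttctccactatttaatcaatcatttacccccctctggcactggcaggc

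Of the simple-epithelium keratins, only Krt8 was the nearest protein-coding start site of an AP-2-dependent region. This region (chr15:102005494-102005880, 387 bp) was centred 1.21 kb upstream of the Krt8 start site and 22.5 kb upstream of the Krt18 start site. Its summit −log10 p was 7.24, which ranked 384 among the 3103 regions, and its area under the curve of −log10 p, as the peak caller gave it, was 920, at rank 485. The region filled 16.9% of a broad control peak (chr15:102004926-102007214), and the summits of region and peak were 2 bp apart. The annotation places this interval outside the Krt8 transcript and inside the long non-coding RNA gene Gm36026. A pair of overlapping AP-2 matches, GCCCCCGGC and GCCCCAGGC, lay 126 and 119 bp from the summit, toward Krt8. An AP-1 match, TGAGTCA, was 37 bp from the summit on the same side.

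Both regions within 50 kb of Krt19 were nearer to the start site of another keratin. The region at Krt15 (chr11:100135818-100136384, 567 bp) was centred 0.174 kb upstream of the Krt15 start site and 10.0 kb downstream of that of Krt19. It was weak among the regions, with a summit −log10 p of 3.52, at rank 2835. A match to the AP-2 string and a match to the AP-1 string lay 67 and 91 bp from its summit. The other region (chr11:100176839-100177405, 567 bp) was centred 31 kb upstream of Krt19, and its nearest start site, at 16.1 kb, was that of Krt9, a keratin of palm and sole epidermis. Its summit −log10 p of 7.53 ranked 342 among the regions, and it held no match to any string searched. This region was also within 50 kb of Krt14 and Krt15, so its place in the Krt19 count rests on distance alone.

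**Figure D1:**
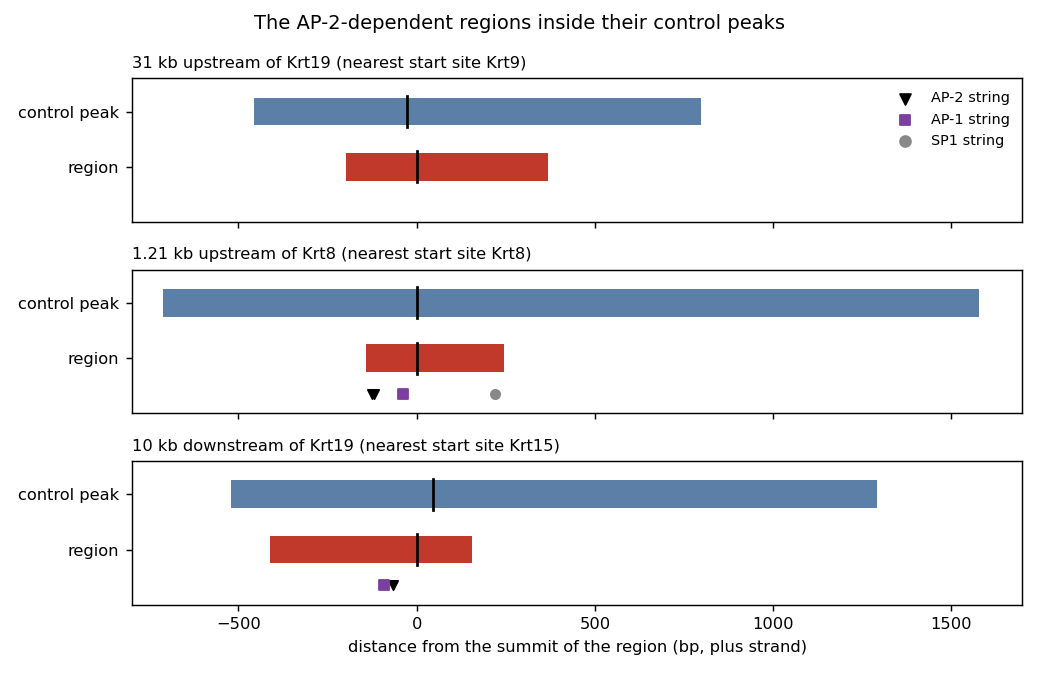
Each panel draws 1 AP-2-dependent region (red) under the control peak that contains it (blue), with the x axis in bp from the summit of the region along the plus strand, black bars at the summits and symbols at string matches. The regions cover 16.9 to 45.2% of their control peaks, and the AP-2 and AP-1 matches at Krt8 and Krt15 lie on the left of the summit.

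Across all 3072 regions on chromosomes, the AP-2 string was found somewhere in 29.7% and the AP-1 string in 12.6%, and each was found in 2 of the 3 regions near these genes. With 3 regions, a share says little. An SP1 string (GGGCGG) was also present in the Krt8 region, 218.5 bp from its summit, and in 13.8% of all regions. TEAD (GGAATG), GRHL (AACCNGTT) and p53 family strings had no match in these regions.

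Per gene, 3 of the 4 keratins had an AP-2-dependent region within 50 kb of the start site, against 11.1% of 21829 protein-coding genes. Krt8 and Krt18 shared the same region, and both Krt19 regions were also counted for Krt15, so that these are not separate events. Per peak, 3 of the 39 control peaks overlapped a region by at least 1 bp, or 7.69% (95% interval 2.65 to 20.3%), against 4.48% of all control peaks, a share that lies inside the interval. The share near the simple-epithelium keratins is thus not read as higher than that of all control peaks. Peaks are not replicates and the interval treats them as independent, so the difference was not tested. None of the 8 control peaks around Krt7 overlapped a region (95% interval 0 to 32.4%). One of 21 did so around Krt8 (4.76%), 1 of 18 around Krt18 (5.56%) and 2 of 8 around Krt19 (25%). Among peaks within 5 kb of any start site, 2 of 19 near these genes overlapped a region (10.5%, 95% interval 2.94 to 31.4%), against 1.52% of all such peaks, which lies below the interval. These were the peaks upstream of Krt8 and at the Krt15 start, and the difference was not tested. Beyond 5 kb the count was 1 of 20 (0.888 to 23.6%), against 5.74%.

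The basal keratins Krt5, Krt14, Krt15 and Krt17 gave the nearest comparison. Their windows held fewer control peaks, 25, and more AP-2-dependent regions, 7, and 7 of the 25 peaks overlapped a region (28%, 95% interval 14.3 to 47.6%). Regions lay around all of these genes, with 3 for Krt5, 2 each for Krt14 and Krt15 and 1 for Krt17, and a basal keratin was the nearest start site of 4 of them. The windows of both groups shared 8 control peaks and 2 regions, all around Krt19. Without the shared peaks, 1 of 31 peaks near the simple-epithelium keratins overlapped a region (3.23%, 0.572 to 16.2%), against 5 of 17 near the basal keratins (29.4%, 13.3 to 53.1%). When region and peak each had to be covered to 50% or more, this left 0 of 39 peaks near the simple-epithelium keratins and 3 of 25 (12%) near the basal ones, against 2.87% of all control peaks. A count of 0 in 39 still allows a share of up to 7.69%, above that of all control peaks, so it says little. Peaks are not replicates, so the difference between the groups was not tested.

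Start sites were open at all 4 simple-epithelium keratins, and none of these start-site peaks overlapped an AP-2-dependent region. Such overlap was rare near the starts of genes in general, at 1.52% of peaks up to 5 kb away. None among 4 peaks therefore says little about these keratins. Of the basal keratins, Krt5, Krt14 and Krt15 had a region inside the peak over the start site and Krt17 did not. This contrast depends on peak boundaries. The Krt14 region was centred 1.18 kb upstream of its start and the Krt8 region 1.21 kb upstream. The Krt8 region fell in a separate peak, from 102004926, just beyond the end of the start-site peak at 102004791. At Krt7 the start-site peak (chr15:101410600-101412940) had a summit −log10 p of 9.05, the highest of the 4 genes, and its width of 2341 bp exceeded 89.8% of 13187 control peaks centred no more than 1 kb from any start site. Its summit lay 1456 bp upstream of the Krt7 start. The Krt18 peak (chr15:102027867-102029302) followed with 7.45 and a summit 18 bp downstream of the start, in the first exon. At Krt8 the peak (chr15:102003705-102004791) had a value of 6.77 and a summit 92 bp downstream, also in the first exon. The Krt19 peak (chr11:100144746-100146505) was the weakest at 5.32, with its summit 873 bp downstream in intron 1. Start-site peaks of all genes had a median of 9.22, so these keratins stood below the middle, at percentiles 47.7 (Krt7), 30.4 (Krt18), 24.6 (Krt8) and 13.5 (Krt19). The start-site peaks of Krt5 and Krt15, with values of 7.46 and 7.38, contained a region at about the level of Krt18. The absence of a region does not show that accessibility was equal in EDKO ectoderm.

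Promoter sequences are given because the start-site peaks cover them entirely (300 of 300 bases for each gene). They come from RefSeq (GRCm38.p6), which held 3 of the 4 genes; Krt19 had no entry. Each runs 5′ to 3′ in the direction of the gene, from 250 bases before to 50 after the RefSeq start, with capitals at matches to the AP-2, SP1 or TATA box (TATAAA) string on either strand. The windows are chr15:101412153-101412452 (plus strand) for Krt7, chr15:102004293-102004592 (minus strand) for Krt8 and chr15:102027966-102028265 (plus strand) for Krt18.
Krt7: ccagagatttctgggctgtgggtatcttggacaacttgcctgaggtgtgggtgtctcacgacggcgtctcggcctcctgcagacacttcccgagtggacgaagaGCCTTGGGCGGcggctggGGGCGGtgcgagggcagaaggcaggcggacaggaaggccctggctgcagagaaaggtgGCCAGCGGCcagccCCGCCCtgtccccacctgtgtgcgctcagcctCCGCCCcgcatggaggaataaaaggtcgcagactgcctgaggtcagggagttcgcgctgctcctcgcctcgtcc
Krt8: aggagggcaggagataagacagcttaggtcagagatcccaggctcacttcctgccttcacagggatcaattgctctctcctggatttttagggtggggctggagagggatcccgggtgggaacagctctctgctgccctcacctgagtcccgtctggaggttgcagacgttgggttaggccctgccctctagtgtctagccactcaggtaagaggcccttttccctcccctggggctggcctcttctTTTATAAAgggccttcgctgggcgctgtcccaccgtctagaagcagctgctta
Krt18: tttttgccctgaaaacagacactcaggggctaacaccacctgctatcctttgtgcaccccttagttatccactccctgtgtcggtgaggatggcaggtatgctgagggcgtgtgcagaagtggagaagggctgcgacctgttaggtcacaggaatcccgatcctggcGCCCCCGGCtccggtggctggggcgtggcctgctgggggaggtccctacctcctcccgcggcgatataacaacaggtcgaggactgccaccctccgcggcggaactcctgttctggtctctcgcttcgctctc

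The 3 promoters differed in their strings. Krt7 had 2 AP-2 matches, 146 and 70 bases upstream of the start, and 4 SP1 matches, of which 1 overlapped the first AP-2 match. Krt18 had 1 AP-2 match, 83 bases upstream, and no SP1 match. The Krt8 promoter held neither, and its 2 TATA matches begin 3 and 1 bases before the RefSeq start, span it and overlap on opposite strands. This RefSeq start is 140 bp downstream of the GENCODE start from which all other Krt8 distances were measured, and that of Krt18 is 36 bp downstream. GC content was 66.3% for Krt7, 61.3% for Krt18 and 58.0% for Krt8, against a median of 52.7% over 32851 promoters, and CG dinucleotides numbered 21, 17 and 6. Of all promoters, 16.6% held the AP-2 string, 35.7% the SP1 string and 13.6% the TATA string. None of these 3 promoters lay in an AP-2-dependent region.

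Krt8 and Krt18 stood in an unusually peak-rich stretch. Within 50 kb, Krt8 had 21 control peaks and Krt18 18, against a median of 4 (quartiles 2 and 7) over all protein-coding genes. Only 64 genes, Krt8 among them, had 21 or more, and 180 had 18 or more. Krt7 and Krt19 had 8 each, at percentile 77.4. Open sequence covered 17.5% of the window around Krt8, 16.5% around Krt18, 8.18% around Krt19 and 7.14% around Krt7, against a median of 3.25%. The start sites of Krt8 and Krt18 are 23.7 kb apart, so their windows shared 16 peaks, which were 76.2% of those of Krt8 and 88.9% of those of Krt18.

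**Figure D2:**
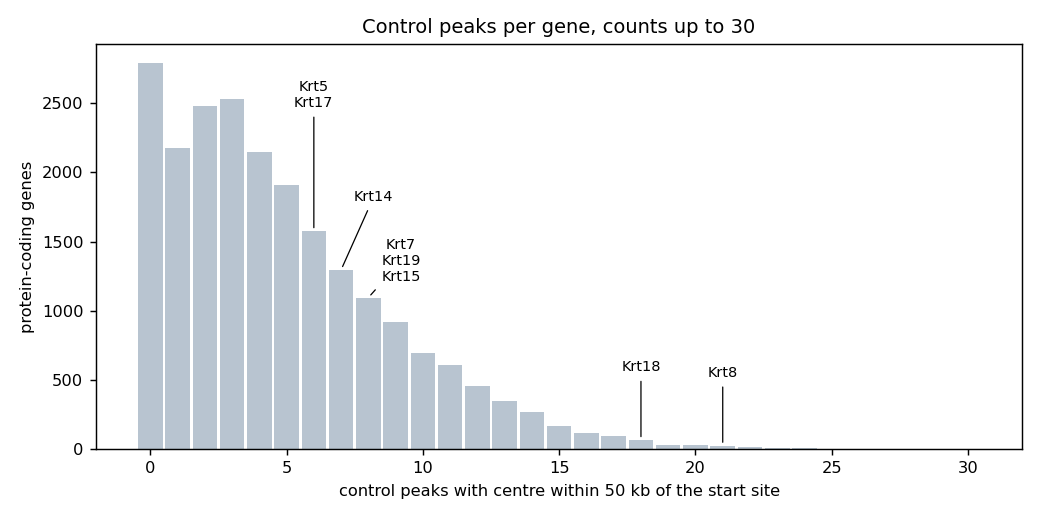
The bars count protein-coding genes (y axis) by the number of control peaks centred within 50 kb of the start site (x axis, shown up to 30), with the simple-epithelium and basal keratins named. Krt8 (21 peaks) and Krt18 (18) lie in the upper tail, and the other keratins named lie between 6 and 8.

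The stretch between both genes held much of this open chromatin. Krt8 and Krt18 are transcribed away from each other, and 8 control peaks lay in the 23.7 kb between their start sites. With the parts of both start-site peaks that reach into it, 32.4% of this interval was open. Among 1608 neighbouring gene pairs of this orientation with start sites 11.9 to 47.4 kb apart, the median was 1 peak and 3.98% of the interval. Only 7 pairs, this one included, had 8 or more peaks, and 10 had as much open sequence.

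Going from Krt8 toward Krt18, the first and broadest of these 8 peaks was the one with the AP-2-dependent region, with a summit −log10 p of 10.2. Next came a peak of 6.65, centred 3.18 kb upstream of Krt8. Smaller peaks followed in the middle, with values of 5.66, 4.68, 4.98 and 5.52. Close to Krt18 the values rose to 9.34 at a peak centred 2.56 kb upstream of its start (chr15:102024984-102026264), beside a minor one of 3.81. Both ends of the interval were thus stronger than its middle, and only the Krt8 end carried an AP-2-dependent region.

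Downstream of Krt8 lay a second group of 8 peaks, 16.1 to 33.8 kb from its start site and outside the principal transcript of any protein-coding gene. The strongest (chr15:101983817-101984971) was centred 20.1 kb downstream and reached 10.9, above 92.6% of all control peaks. Values of 8.66 and 8.52 followed at 30.6 and 27.1 kb, where the keratin gene Krt78 had the nearest start site. None of the 8 overlapped an AP-2-dependent region. Of all control peaks beyond 5 kb from a start site, 5.74% did so, and none among 8 peaks is near that share. Between this group and the peak in intron 1 of Krt8 was a gap of 14.2 kb without a peak, which took in most of the Krt8 gene. The gene body was open over 19.9% of its length, under the start-site peak and the peak with its summit in intron 1. On the other side of Krt18 no peak lay within 22.6 kb of its start-site peak, and the 4 peaks beyond were nearest to Eif4b, which encodes a translation initiation factor. The Eif4b start-site peak had the highest summit of all 39, 11.1.

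**Figure D3:**
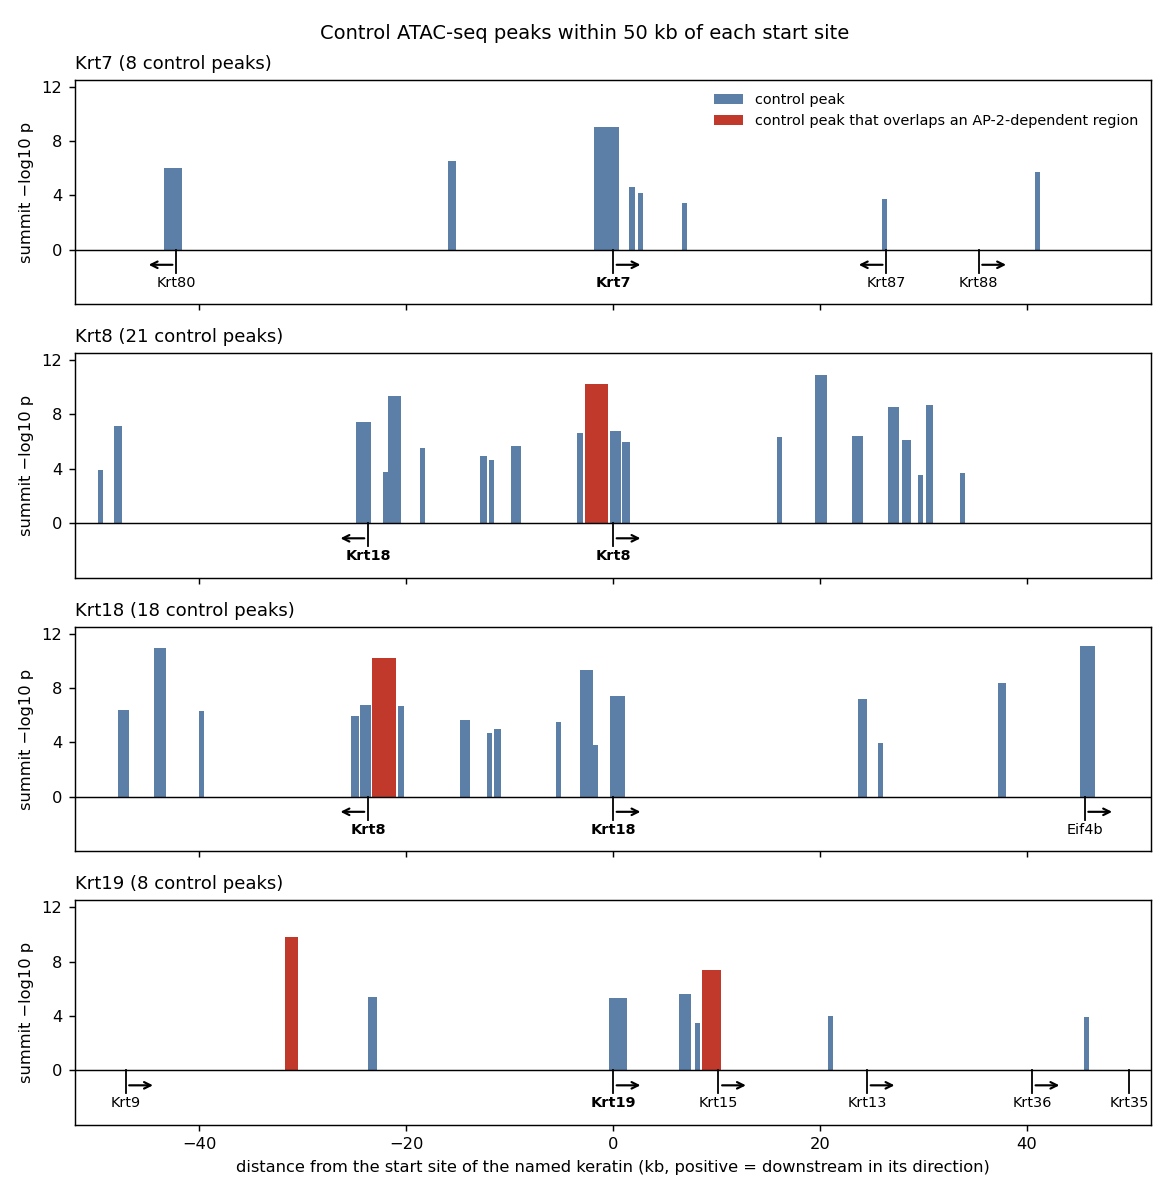
Each panel shows the control peaks within 50 kb of a keratin start site by distance in kb (x axis, downstream to the right) and summit −log10 p (y axis), with peaks narrower than 0.5 kb drawn 0.5 kb wide and arrows at start sites in the direction of transcription. Peaks that overlap an AP-2-dependent region (red) number 1 around Krt8 and Krt18, 2 around Krt19 and 0 around Krt7.

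Fewer peaks lay around Krt7 and Krt19. Around Krt7, 5 of the 8 peaks had Krt7 as the nearest start site. Beside the start-site peak these were a peak 15.6 kb upstream with a value of 6.50 and peaks 1.86, 2.64 and 6.89 kb downstream, in exon 2, intron 2 and intron 4, with values of 4.58, 4.20 and 3.46. Values thus fell from the start site into the gene. The rest were nearest to the keratin genes Krt80, Krt87 and Krt88. In the Krt87 peak, 38.5% of the 31-base words occurred more than once on the chromosomes, so reads there may have been shared between copies.

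Around Krt19 only 2 of the 8 peaks had Krt19 as the nearest start site. Apart from the start-site peak, this was a peak 23.2 kb upstream with a value of 5.40 (chr11:100168903-100169788). Krt15 was nearest for 3 peaks between 6.94 and 9.51 kb downstream, with values of 5.62, 3.48 and 7.38, and the last of these contained the Krt15 region. The highest value in the window was 9.78, at the peak with the other AP-2-dependent region. Krt19 and Krt15 start sites are 10.2 kb apart, and their windows held the same 8 peaks.

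Over the 39 peaks, summit −log10 p had a median of 5.95 (95% interval 4.98 to 6.77) and a range from 3.46 to 11.1, against a median of 5.10 over all control peaks. Of the 39, 26 (66.7%) exceeded that median and 11 (28.2%) were above the 75th percentile. The direction depended on distance from a start site. Within 5 kb of any start site the median was 5.95 near these genes, below the 7.65 of all such peaks. Beyond 5 kb it was 5.94, above the 4.66 of all such peaks. Median width was 768 bp against 560 bp. Medians by gene were 6.53 for Krt18, 6.33 for Krt8, 5.36 for Krt19 and 5.16 for Krt7. Single peaks ranged from below 4 to above 9 in every window, Krt8 and Krt18 shared most of theirs, and differences between these medians were not tested. The basal keratin windows had a median of 5.86. Summits lay outside principal transcripts of protein-coding genes in 28 peaks, in introns in 5, in coding exons in 3 and in untranslated exons in 3. By nearest start site, 21 of the 39 peaks (53.8%) belonged to a member gene, 9 to Krt8, 5 to Krt7, 5 to Krt18 and 2 to Krt19.

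Within 100 bp of the summits, the AP-2 string was present in 7 of the 39 peaks (17.9%, against 14.4% of all control peaks). The TEAD string was present in 9 (23.1%, against 17.9%) and the SP1 string in 7 (17.9%, against 22.9%). The AP-1 string was found in 5 peaks (12.8%, against 5.80%), of which all lay around Krt8 and 3 between intron 1 of Krt8 and the middle of the interval toward Krt18. The GRHL string was found in 1 peak and the p53 family string in none, against 3.09% and 8.68% of all control peaks. The 7 peaks with an AP-2 match at the summit did not include any of the 3 that overlapped a region. Matches are descriptions of sequence and not of binding.

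In all 39 peaks the median 31-base word occurred 1 time on the chromosomes, and 27 peaks held no repeated word. The Krt8 start-site peak was among 4 peaks with over 10% of repeated words (27.9%, up to 3 copies). The AP-2-dependent regions near these genes held none.

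Keratin genes were counted for context, as the 49 protein-coding genes whose symbol is Krt and a number. Keratins with a letter after the number were left out. Among those left out was Krt6a, whose start site lies within 50 kb of the Krt5 regions. Of the 49 listed, 17 (34.7%) had an AP-2-dependent region within 50 kb, against 11.1% of all genes, but they shared 10 regions. On chromosome 11, 13 of 25 listed keratins had one and on chromosome 15 4 of 24, namely Krt5, Krt71, Krt8 and Krt18. The listed keratins other than Krt8 and Krt18 had at most 12 control peaks, at Krt78 and Krt79, whose windows reach into the group downstream of Krt8. Of the listed keratins, 8 were the nearest start site of a region, and among the simple-epithelium keratins this was Krt8 alone.

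**Figure D4:**
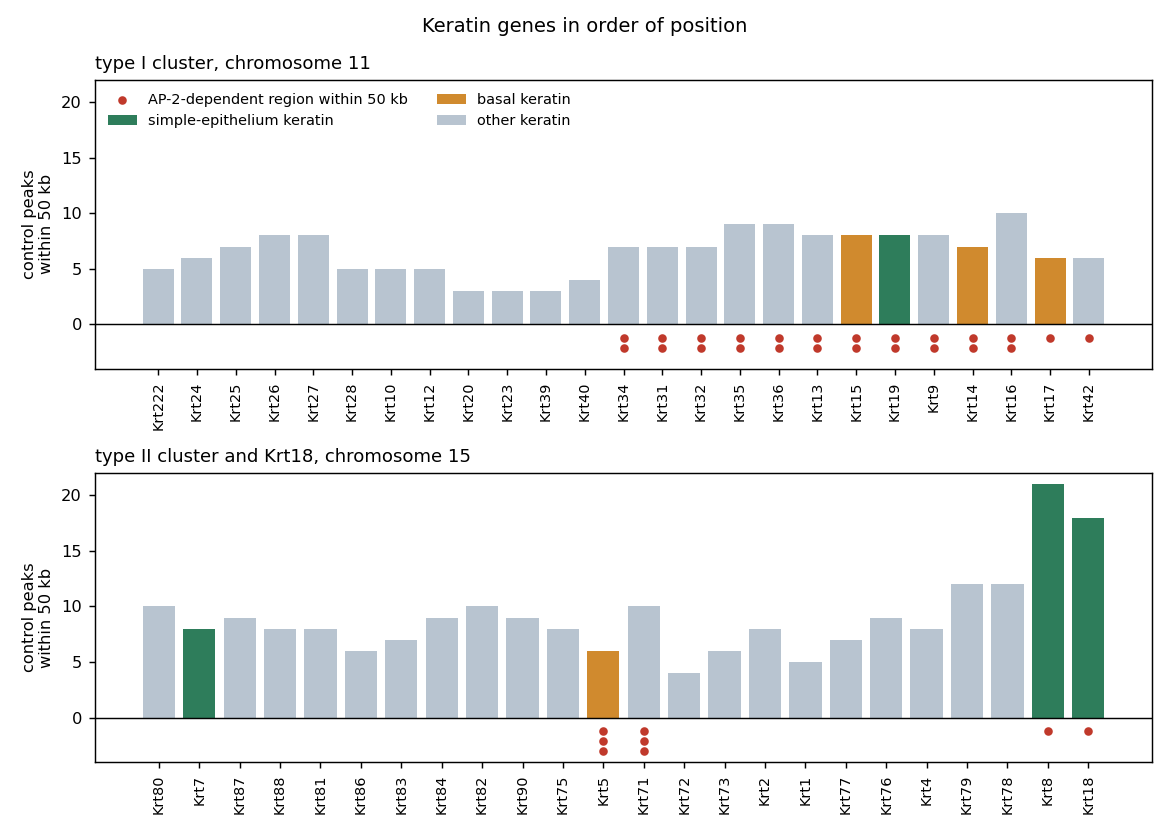
Bars give the number of control peaks within 50 kb of the start site of each listed keratin (y axis), with genes in order of position (x axis). Red dots below mark AP-2-dependent regions within 50 kb, which neighbouring genes share. Krt8 and Krt18 have the tallest bars with 1 shared region, whereas Krt5 has 6 peaks and 3 regions.

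As a check of the tissue, all 5 surface ectoderm markers (Epcam, Cdh1, Trp63, Esrp1 and Krt5) had a control peak within 1 kb of the start site, with summit −log10 p from 7.46 to 12.4. The same was true of 4 of 5 mesenchyme markers (Prrx1, Twist1, Pdgfra and Col1a1, not Lum, with 3.78 to 7.96). It was also true of Kdr among 4 endothelial markers, with 9.01, inside the range of the surface ectoderm markers. An open start site does not show expression, and the part of other cells in the peaks described was not tested.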

How the data were processed

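ATAC-seq of E11.5 facial surface ectoderm was used from 2 control and 2 EDKO libraries. The authors trimmed reads with NGmerge, aligned them to mm10 with Bowtie2, keeping up to 10 placements a read, and used Genrich 0.5 in its ATAC-seq mode, without PCR duplicates or mitochondrial reads, to call peaks. Multiple placements can spread reads over copies of a sequence. The deposited −log10 p was taken as that of the summit, unadjusted. In all 65467 control peaks and all 3103 regions, the deposited score equalled 1000 times the area under the curve over the width, capped at 1000. Values were compared within a list only, and the depth is unknown.

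Intervals were converted to coordinates counted from 1. The start site was that of the APPRIS principal transcript (GENCODE M21, GRCm38), for 21829 genes. Overlap meant at least 1 bp. Strings were matched within 100 bp of summits, in whole regions and in promoters. Python 3.11.15, pandas 2.3.3 and scipy 1.17.1 were used, and overlaps, windows and nearest start sites were tested on simulated data against bedtools or direct counts, with 0 differences. Named genes were the members, the basal keratins, keratins with a region, and nearest genes of a region or of at least 2 peaks. Krt80, Krt87, Krt88 and Krt79 were named after their values were seen. Members and lists were chosen with earlier results of these data known. A marker list and the sequence of 1 region are not reported here.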

Additional observations from a re-analysis of the deposited data

How the results depend on the processing

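Of 26 alternative values, 21 stayed within 1.5 times the count or inside the 95% interval of the reported value, and 5 moved. A window of 100 kb raised the control peaks from 39 to 62 and the AP-2-dependent regions from 3 to 5, and lowered the share of peaks nearest to a member gene from 53.8 to 33.9%. A window of 25 kb raised that share to 80.8%. Requiring an overlap of at least 50% of both intervals left 0% of the peaks with a region, the 3 regions filling 16.9 to 45.2% of their peaks. With a minimum of 500 for the area under the curve, 30 peaks and 2 regions remained, without the region at Krt15. The median summit −log10 p ranged from 5.73 to 6.46 over its alternatives.

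No paired analysis was possible because both lists pool their libraries, so that no value carries a replicate number. No library was left out for the same reason. The depth behind each peak is unknown, and shares over 3 regions have wide intervals.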
